A study of Mus musculus with 6 samples.

Results

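The genes described here make cholesterol, control its synthesis through the SREBP transcription factors, or move sterols and use the same control for fatty acids. They are 28 genes named by symbol out of 22298 listed genes, and every one of them is listed in the table of newborn lens expression values. They were arranged along the pathway into 7 genes of the mevalonate steps, 3 from squalene to lanosterol, 8 from lanosterol to cholesterol, 5 of SREBP control, 2 of sterol transport and 3 of fatty acid synthesis and desaturation.

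Cells build cholesterol from acetyl-CoA by way of mevalonate, farnesyl diphosphate, squalene and lanosterol. When membrane sterol is low, SCAP escorts the precursors of the SREBP factors from the endoplasmic reticulum to the Golgi, where proteases release the active factors, and INSIG proteins hold that escort back when sterol is plentiful. The plasma membranes of lens fibre cells are unusually rich in cholesterol, and inherited defects of lanosterol synthase can cause cataract in people.

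The lenses came from Fyco1-/- mice and from wild-type (WT) mice, all labelled C57BL/6 and taken on postnatal day 0, with 3 libraries per genotype. The Fyco1 protein is an adaptor between autophagosomes and kinesin motors. Each library was a biological replicate made from total RNA of 10 lenses, so a value averages over lenses and over epithelium and fibre cells. The labels give neither the allele nor the litters or sexes of the mice. Values are FPKM, fragments per kilobase of gene scaled to the mapped reads, and the libraries are called A, B and C as in their titles. Where 3 values are given for a genotype they are those of A, B and C in that order.

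The libraries held an estimated 17.1 M to 20.1 M reads, and crystallins took 70.2% to 71.7% of the summed FPKM in each. Fibre markers, with all 8 of 8 listed, had a summed level of 221729 to 228517 FPKM in Fyco1-/- and 211560 to 219356 FPKM in WT. The defining genes of the labelled tissue were therefore present. Their levels were uneven, and the first listed entry of Lim2 measured only 2.67 to 3.48 FPKM over the 6 libraries. Of these 8, Crygb rose and Bfsp2 fell in Fyco1-/- (limma). Fyco1 itself measured 4.61, 4.59 and 4.87 FPKM in the Fyco1-/- libraries against 5.40, 5.21 and 5.11 FPKM in the WT libraries. The groups did not overlap, but the difference was not called (log2 fold change -0.15, SE 0.08, limma adjusted p = 0.273), so this level does not settle the genotype of the libraries.

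No enzyme of cholesterol synthesis and no gene of SREBP control was called as different between the genotypes, while 1 gene of the 28, the stearoyl-CoA desaturase Scd2, fell in Fyco1-/- lenses. Of the 27 members that had a mean FPKM of at least 0.5 and were tested, 0 rose, 1 fell and 26 were not called (limma on log2(FPKM + 0.5), Benjamini-Hochberg adjusted p under 0.05 over 12001 genes). The called share was 3.70% of the members, against 8.43% of all tested genes, 3.42% called higher and 5.02% called lower. At an unadjusted p under 0.05 there were 5 members, 1 higher (Stard4) and 4 lower (Scd2, Sc5d, Srebf1 and Pmvk), where 24.4% of all tested genes passed. The authors' deposited table, from DESeq2, likewise held 1 member with an adjusted p under 0.05, Scd2, where 9.37% of the genes with an adjusted p there passed. The median log2 fold change of the tested members was -0.08, with 10 positive and 17 negative, and that of all tested genes was -0.04. The members' median was 0.0021 without WT B, with 14 of the 27 positive, and it was -0.038 with median-of-ratios scaling and -0.023 with quantile normalization.

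The intervals bounded how far the uncalled members could have moved. For 23 of the 26, or 88.5%, the 95% interval of the log2 fold change lay wholly within 1.5-fold in either direction, as it did for 84.9% of the 10989 uncalled genes of the whole table. The 3 members whose intervals reached past 1.5-fold were Hsd17b7, Insig1 and Stard4.

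**Figure D1:**
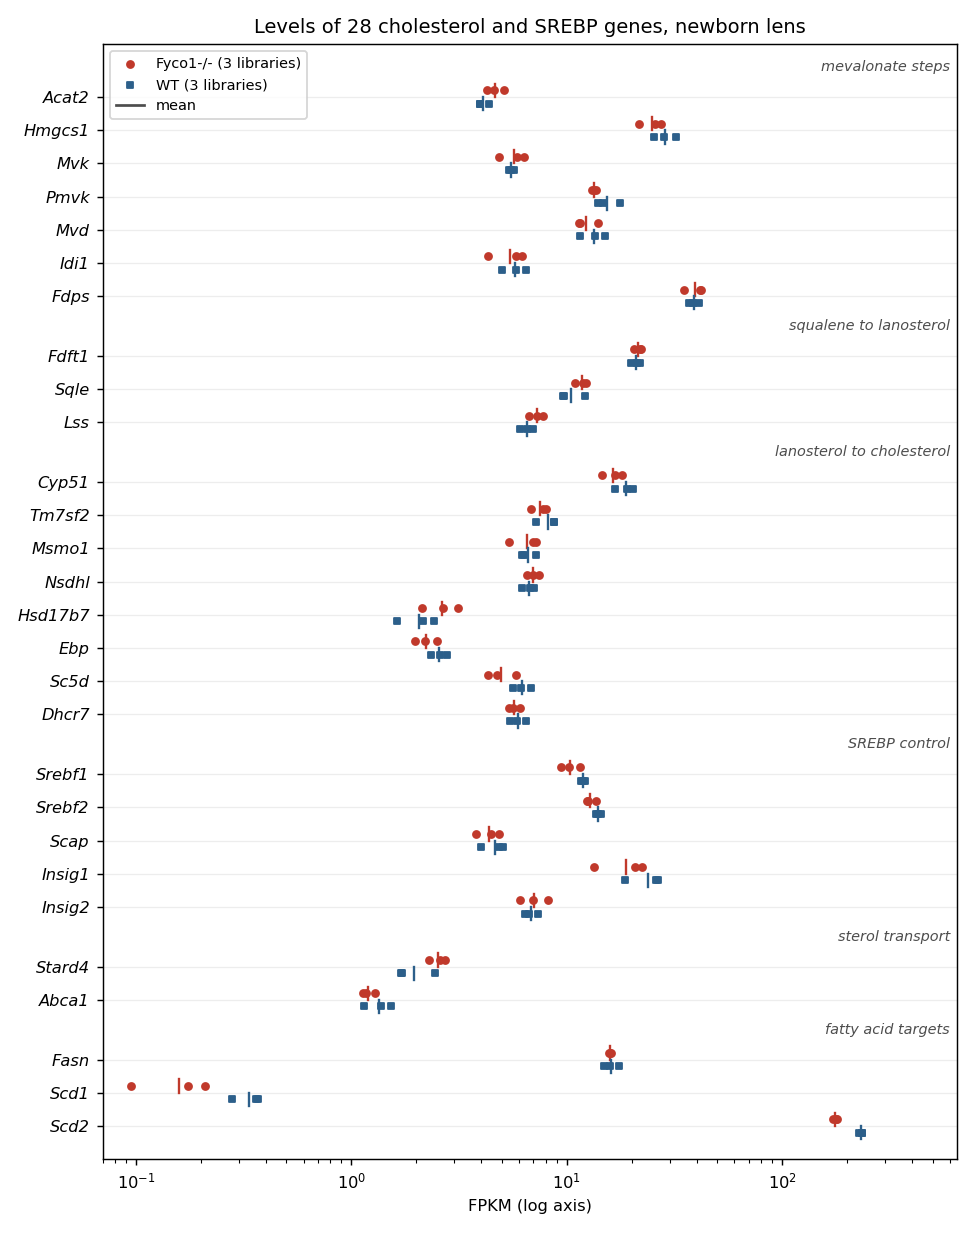
FPKM of the 28 genes in pathway order on a log axis, with Fyco1-/- libraries as red circles above WT libraries as blue squares, and a vertical bar at each mean. Most genes overlap between genotypes, Scd2 has its Fyco1-/- libraries at 172 to 180.3 FPKM and its WT libraries at 227 to 235 FPKM, and Scd1 lies lowest of all.

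**Figure D2:**
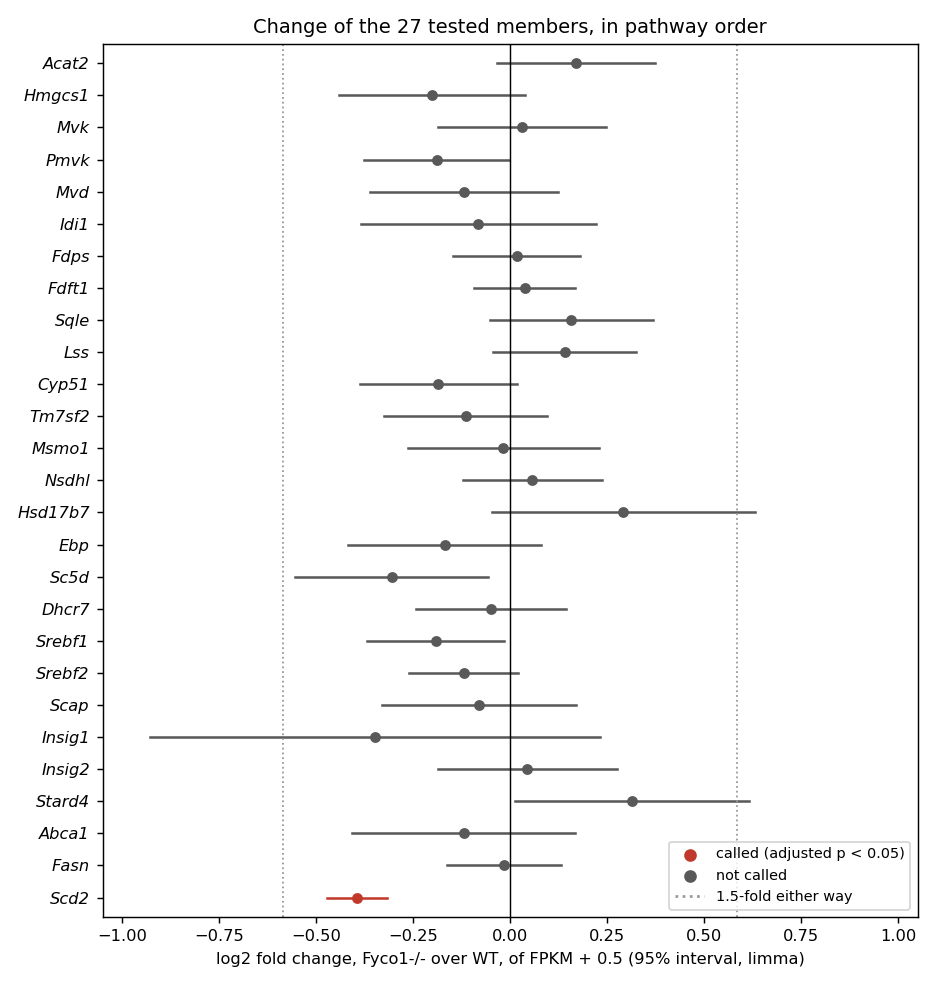
Log2 fold change of FPKM + 0.5, Fyco1-/- over WT, for the 27 tested members with 95% intervals from limma, and dotted lines at 1.5-fold. Scd2, in red, is the called gene, and Insig1 has the widest interval, from -0.93 to 0.23.

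Promoters of 22 members were found in the RefSeq table of mouse promoters (build GRCm38.p6), which gives 250 bases before and 50 bases after each annotated start. Windows of 4 members are printed because, of the 14 members that were lowest in A in both genotypes, these had the lowest ratio of A to the mean of B and C when that ratio was averaged over the genotypes. They are the feedback gene Insig1 (chr5:28071162-28071461, plus strand), the sterol reductase Hsd17b7 (chr1:169969156-169969455, minus strand), the isomerase Idi1 (chr13:8885356-8885655, plus strand) and the synthase Hmgcs1 (chr13:119690101-119690400, plus strand). Each is written 5′ to 3′ on the strand of its gene, and capitals mark the motifs searched: CCAAT, which on the other strand reads ATTGG, the sterol response element of the form TCACNCCAC, and the E-box CACGTG, a form that SREBP proteins can also bind.
Insig1: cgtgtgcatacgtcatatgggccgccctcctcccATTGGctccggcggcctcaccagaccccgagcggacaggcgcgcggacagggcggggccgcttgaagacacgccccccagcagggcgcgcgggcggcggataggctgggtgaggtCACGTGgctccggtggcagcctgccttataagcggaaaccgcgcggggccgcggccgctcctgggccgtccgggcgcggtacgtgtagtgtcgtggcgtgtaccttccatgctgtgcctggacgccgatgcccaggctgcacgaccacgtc
Hsd17b7: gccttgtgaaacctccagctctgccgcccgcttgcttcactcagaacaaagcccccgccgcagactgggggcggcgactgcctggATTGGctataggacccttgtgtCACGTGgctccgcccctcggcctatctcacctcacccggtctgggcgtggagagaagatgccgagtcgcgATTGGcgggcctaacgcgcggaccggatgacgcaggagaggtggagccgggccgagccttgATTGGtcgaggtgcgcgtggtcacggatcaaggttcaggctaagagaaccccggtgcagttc
Idi1: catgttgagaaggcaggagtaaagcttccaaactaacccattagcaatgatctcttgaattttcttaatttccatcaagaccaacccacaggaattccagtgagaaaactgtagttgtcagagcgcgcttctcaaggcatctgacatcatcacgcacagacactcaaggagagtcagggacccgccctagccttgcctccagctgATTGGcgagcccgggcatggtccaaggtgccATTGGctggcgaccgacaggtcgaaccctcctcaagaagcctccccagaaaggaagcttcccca
Hmgcs1: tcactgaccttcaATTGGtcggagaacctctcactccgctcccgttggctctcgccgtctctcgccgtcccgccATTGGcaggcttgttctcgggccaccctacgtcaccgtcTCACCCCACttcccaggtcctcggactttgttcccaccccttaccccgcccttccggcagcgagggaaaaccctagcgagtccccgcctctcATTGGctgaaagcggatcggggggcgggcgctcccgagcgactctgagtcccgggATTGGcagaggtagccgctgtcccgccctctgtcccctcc

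Most windows of the members held CCAAT, the element bound by NF-Y, a factor known to act together with SREBP. CCAAT stood on one strand or the other in 19 of the 22 members, while 41.1% of the 27025 genes in the promoter table had it, as did 42.8% of the 8710 tested genes with a window. The Insig1 window had a CCAAT box 216 bases upstream of the start and a CACGTG 101 bases upstream, and the Hsd17b7 window had CCAAT boxes 165, 73 and 12 bases upstream and a CACGTG 143 bases upstream. Idi1 had CCAAT boxes 45 and 14 bases upstream. The sterol response element was matched in 1 member, Hmgcs1, 137 bases upstream of its start, where 1.44% of all genes had a match, and the same window had CCAAT boxes 237, 176 and 45 bases upstream and 1 at 11 bases downstream. CACGTG was matched in 6 members (Abca1, Dhcr7, Hsd17b7, Insig1, Sc5d and Scap), against 8.09% of all genes and 12.3% of the tested genes with a window. The 3 motifs were searched on both strands and their letters do not overlap in the windows printed. A match says only that these letters are there.

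The mevalonate steps held the enzyme genes with the highest levels per length, Fdps and Hmgcs1, and none of the 7 genes was called by limma, with 1 unadjusted p under 0.05, that of Pmvk. Fdps, which makes farnesyl diphosphate, averaged 39.4 ± 3.94 FPKM in Fyco1-/- and 38.9 ± 2.02 FPKM in WT (mean ± SD of the 3 libraries of a genotype), a log2 fold change of 0.02. Hmgcs1, the cytosolic enzyme that makes HMG-CoA, measured 21.5, 25.7 and 27.3 FPKM in the Fyco1-/- libraries against 25.3, 32.3 and 28.3 FPKM in the WT libraries. Its groups overlapped (log2 fold change -0.20, SE 0.11, limma adjusted p = 0.284).

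Pmvk, the phosphomevalonate kinase, was the 1 gene of these steps whose groups did not overlap. It measured 13.1, 13.7 and 13.4 FPKM in the Fyco1-/- libraries against 14.8, 17.6 and 13.9 FPKM in the WT libraries. The 3 Fyco1-/- libraries lay close together just below the lowest WT library, C, and most of the distance came from WT B. The log2 fold change of -0.19 (SE 0.08) had an unadjusted p of 0.0475 and was not called (limma adjusted p = 0.199). Among all tested genes 29.7% had groups that did not overlap, and among the 27 tested members it was 3, namely Pmvk, Srebf1 and Scd2, each lower in Fyco1-/-.

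Acat2, the cytosolic thiolase at the head of the pathway, lay on the other side. Its levels were 4.27, 5.12 and 4.61 FPKM in the Fyco1-/- libraries against 3.95, 4.34 and 3.96 FPKM in the WT libraries. The highest WT library overlapped the lowest Fyco1-/- library (log2 fold change 0.17, SE 0.09, limma adjusted p = 0.285). Acat2 shares 97.7% of 1477 bases with Acat3, so its reads may be divided between both genes. Mvd, which decarboxylates diphosphomevalonate, measured 11.4, 13.9 and 11.5 FPKM in the Fyco1-/- libraries against 11.5, 15.1 and 13.5 FPKM in the WT libraries, with overlapping groups (limma adjusted p = 0.553). The mevalonate kinase Mvk averaged 5.69 ± 0.745 FPKM in Fyco1-/- and 5.52 ± 0.170 FPKM in WT. Idi1, which isomerizes isopentenyl diphosphate, averaged 5.45 ± 1.004 FPKM in Fyco1-/- and 5.76 ± 0.747 FPKM in WT, and neither Mvk nor Idi1 was called (limma adjusted p = 0.877 for Mvk and 0.767 for Idi1).

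The steps from squalene to lanosterol had positive log2 fold changes for all 3 enzymes, but 0 were called and 0 had an unadjusted limma p under 0.05. Fdft1, the squalene synthase, measured 20.4, 22.2 and 21.8 FPKM in the Fyco1-/- libraries against 19.8, 21.1 and 21.8 FPKM in the WT libraries. Sqle, the squalene epoxidase, measured 10.9, 12.3 and 11.9 FPKM in the Fyco1-/- libraries against 9.58, 12.1 and 9.73 FPKM in the WT libraries. WT B reached the Fyco1-/- range for Sqle, so the groups overlapped. Lss, the lanosterol synthase whose defects are linked to cataract, measured 6.71, 7.78 and 7.28 FPKM in the Fyco1-/- libraries against 6.52, 6.99 and 6.09 FPKM in the WT libraries.

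The log2 fold changes of the 3 enzymes were 0.04 for Fdft1, 0.16 for Sqle and 0.14 for Lss (limma adjusted p = 0.747, 0.341 and 0.334 in that order). In the authors' deposited table the unadjusted p was 0.0297 for Sqle and 0.0176 for Lss, with adjusted p of 0.182 and 0.129. Of the 4227 exon bases of Fdft1, 774 overlap the neighbouring gene Ctsb on the opposite strand, and whether strand was used in counting is not given in the sources used here. Exons of Lss (381 bases), Hmgcs1 (557), Scap (985), Idi1 (323), Cyp51 (166) and Srebf1 (109) also overlap a gene on the opposite strand. Those of Fdps (1124 bases), Tm7sf2 (532 bases) and Scd2 (61 bases) overlap a gene on their own strand. Idi1 also has a pseudogene identical to it over 684 bases. Summed over the 3 enzymes the level was 40.4 ± 2.22 FPKM in Fyco1-/- and 37.9 ± 2.16 FPKM in WT (exact permutation test, two-sided p = 0.2, where 0.1 is the smallest p that 3 against 3 libraries allow).

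The steps from lanosterol to cholesterol held 8 members and 0 calls, with 1 unadjusted limma p under 0.05, that of Sc5d. Sc5d, the desaturase that makes the precursor used by Dhcr7, measured 4.74, 5.78 and 4.30 FPKM in the Fyco1-/- libraries against 6.84, 6.11 and 5.64 FPKM in the WT libraries. Fyco1-/- B lay above WT C, so the groups overlapped. The log2 fold change was -0.30 (SE 0.11, 95% interval -0.55 to -0.06), with an unadjusted p of 0.0211 and a limma adjusted p of 0.125. Sc5d lies on chromosome 9 (GRCm38, 42251595 to 42264256, minus strand), the chromosome that also holds Fyco1 (123789500 to 123851899). Scap, the other member on that chromosome, lies nearer to Fyco1 (110333288 to 110384950). Its log2 fold change was -0.08 and it was not called. The part of position in the level of Sc5d was not tested.

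Hsd17b7, which reduces the sterol ketone during demethylation, deviated the other way. It measured 2.13, 3.13 and 2.67 FPKM in the Fyco1-/- libraries against 1.64, 2.15 and 2.42 FPKM in the WT libraries. The genotypes overlapped and library A was the lowest in each (log2 fold change 0.29, SE 0.15, 95% interval -0.05 to 0.63, limma adjusted p = 0.273). Cyp51, the lanosterol demethylase and the most abundant enzyme of these steps, measured 14.6, 16.7 and 18.0 FPKM in the Fyco1-/- libraries against 16.8, 20.3 and 19.1 FPKM in the WT libraries. Here too the groups overlapped (log2 fold change -0.18, SE 0.09, limma adjusted p = 0.244). Ebp, the sterol isomerase, measured 1.98, 2.20 and 2.51 FPKM in the Fyco1-/- libraries against 2.35, 2.57 and 2.77 FPKM in the WT libraries, again with overlap (log2 fold change -0.17, limma adjusted p = 0.396).

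The remaining 4 enzymes of these steps were far from a call. Tm7sf2, a sterol reductase, averaged 7.55 ± 0.631 FPKM in Fyco1-/- and 8.22 ± 0.879 FPKM in WT. The methyl oxidase Msmo1 averaged 6.53 ± 1.004 FPKM in Fyco1-/- and 6.58 ± 0.541 FPKM in WT, and the dehydrogenase Nsdhl averaged 6.96 ± 0.429 FPKM in Fyco1-/- and 6.68 ± 0.455 FPKM in WT. Dhcr7, the reductase of the last step and the gene of Smith-Lemli-Opitz syndrome in people, averaged 5.69 ± 0.369 FPKM in Fyco1-/- and 5.91 ± 0.5005 FPKM in WT. Their log2 fold changes were -0.11 for Tm7sf2, -0.02 for Msmo1, 0.06 for Nsdhl and -0.05 for Dhcr7, with limma adjusted p between 0.503 and 0.944.

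Summed over the 18 synthesis enzymes, which weights the abundant ones, the level was 187, 209.9 and 200.4 FPKM in the Fyco1-/- libraries against 193, 223 and 203 FPKM in the WT libraries. Fyco1-/- B exceeded both WT A and WT C, and within each genotype A was the lowest library and B the highest. The means were 199 ± 11.5 FPKM in Fyco1-/- and 207 ± 15.2 FPKM in WT (exact permutation test, two-sided p = 0.6). The enzymes took 0.0264% of the summed FPKM in Fyco1-/- and 0.0276% in WT.

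Among the genes of SREBP control, the gene of the factor that mainly drives fatty acid synthesis stood nearest to a difference. Srebf1 measured 9.37, 11.6 and 10.2 FPKM in the Fyco1-/- libraries against 11.9, 12.1 and 11.6 FPKM in the WT libraries. All Fyco1-/- libraries lay below all WT libraries, though B came close to the lowest of WT. The log2 fold change of -0.19 (SE 0.08, 95% interval -0.37 to -0.02) had an unadjusted p of 0.0358 and was not called (limma adjusted p = 0.170). Srebf2, which encodes the factor that mainly drives cholesterol synthesis, measured 13.7, 12.5 and 12.4 FPKM in the Fyco1-/- libraries against 13.6, 14.4 and 13.9 FPKM in the WT libraries. Fyco1-/- A overlapped WT (log2 fold change -0.12, SE 0.06, limma adjusted p = 0.281). The ratio of Srebf2 to Srebf1 averaged 1.252 ± 0.191 in Fyco1-/- and 1.178 ± 0.0302 in WT (exact permutation test, two-sided p = 0.7).

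Insig1, which is itself switched on by SREBP and closes the feedback loop, had the widest spread of all tested members. It measured 13.3, 20.6 and 22.3 FPKM in the Fyco1-/- libraries against 18.6, 26.5 and 26.0 FPKM in the WT libraries. Library A was far below B and C in both genotypes, and WT A overlapped the Fyco1-/- range. The means were 18.7 ± 4.76 FPKM in Fyco1-/- and 23.7 ± 4.43 FPKM in WT, with a log2 fold change of -0.35 (SE 0.23, 95% interval -0.93 to 0.23, limma adjusted p = 0.430). Without both A libraries, a setting chosen after the values were seen, the remaining groups did not overlap, and the log2 fold change was -0.29 with a limma adjusted p of 0.0548. Insig1 (ENSMUSG00000045294) lies on chromosome 5 (GRCm38, 28071363 to 28078662, plus strand).

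Insig2, the paralog that SREBP does not induce in the same way, was not lowest in A in both genotypes. It measured 6.96, 8.16 and 6.09 FPKM in the Fyco1-/- libraries against 7.33, 6.43 and 6.66 FPKM in the WT libraries (log2 fold change 0.04, limma adjusted p = 0.841). The ratio of Insig1 to Insig2 averaged 2.70 ± 0.885 in Fyco1-/- and 3.52 ± 0.860 in WT, with overlapping groups (exact permutation test, two-sided p = 0.2). Scap, the escort protein gene, measured 4.85, 4.44 and 3.80 FPKM in the Fyco1-/- libraries against 5.06, 4.85 and 4.01 FPKM in the WT libraries, where C was the lowest library of each genotype (log2 fold change -0.08, limma adjusted p = 0.718). Summed over the 5 control genes the level was 53.4 ± 4.71 FPKM in Fyco1-/- and 61.1 ± 4.03 FPKM in WT (exact permutation test, two-sided p = 0.2).

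The sterol transport genes pointed in different directions and neither was called. Stard4, a cytosolic carrier of cholesterol, measured 2.29, 2.73 and 2.58 FPKM in the Fyco1-/- libraries against 1.70, 2.45 and 1.72 FPKM in the WT libraries. WT B alone overlapped the Fyco1-/- libraries. The log2 fold change of 0.31 (SE 0.14, 95% interval 0.01 to 0.62) had an unadjusted p of 0.0423 and a limma adjusted p of 0.186, and the authors' deposited table gave an adjusted p of 0.103. Abca1, the pump that exports cholesterol to apolipoproteins, measured 1.29, 1.17 and 1.13 FPKM in the Fyco1-/- libraries against 1.53, 1.37 and 1.14 FPKM in the WT libraries (log2 fold change -0.12, limma adjusted p = 0.623).

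The fall of Scd2 was the clear difference among the 28 genes. Scd2 (ENSMUSG00000025203, GRCm38 chromosome 19, 44293674 to 44306864, plus strand) encodes a stearoyl-CoA desaturase, an enzyme that makes monounsaturated fatty acids for membranes and a known SREBP target. It measured 172, 180.3 and 177 FPKM in the Fyco1-/- libraries against 227, 235 and 235 FPKM in the WT libraries. The libraries of each genotype lay within a few FPKM of each other, and a wide gap separated the genotypes. The means of 177 ± 4.25 FPKM in Fyco1-/- and 232 ± 4.46 FPKM in WT gave a ratio of 0.760. Its log2 fold change was -0.39 (SE 0.03, 95% interval -0.47 to -0.32), with a limma adjusted p of 0.000132. The authors' deposited table gave -0.34 on the log2 scale, with an adjusted p of 1.96e-12. Scd2 was also the most abundant of the 28 genes and ranked 165 of the 22298 listed genes by mean FPKM.

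Cell type markers differed in level beside Scd2. The 5 epithelium markers other than the crystallin gene Cryab, namely Foxe3, Pax6, Cdh1, Gja1 and Itga6, summed to 184 to 208 FPKM in Fyco1-/- and 230.3 to 276 FPKM in WT. Of these, Pax6 and Itga6 fell, and with Cryab, which rose, the 6 markers summed to 8342 to 8714 FPKM in Fyco1-/- and 7578 to 7946 FPKM in WT. The 4 proliferation genes summed to 12.7 to 17.3 FPKM in Fyco1-/- and 20.6 to 25.7 FPKM in WT, and 1 of them, Pcna, fell. None of these markers was at 0 in all libraries. In whole lenses, fewer cells of a type and less RNA per cell cannot be told apart, and the part of these shifts in the level of Scd2 was not tested. Adipocyte markers, of a tissue rich in desaturases, summed to at most 0.111 FPKM in Fyco1-/- and 0.107 FPKM in WT.

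Scd1, the form that predominates in liver and fat, was barely present and was not tested because its mean of 0.247 FPKM was below the minimum. It measured 0.208, 0.0953 and 0.174 FPKM in the Fyco1-/- libraries against 0.278, 0.360 and 0.368 FPKM in the WT libraries. These values correspond to an estimated 9.09 to 19.2 reads per library in Fyco1-/- and 23.2 to 35.4 reads in WT. The groups did not overlap, but when the minimum was dropped the log2 fold change of -0.34 had a limma adjusted p of 0.265. Scd1 and Scd2 share 95.5% of their sequence over 623 bases, so reads may be exchanged between them. Scd2 stood at 638 to 1892 times the level of Scd1 in the 6 libraries. A very small share of Scd2 reads could therefore make up much of the Scd1 values, and whether it did was not tested. Fasn, the fatty acid synthase, averaged 15.9 ± 0.180 FPKM in Fyco1-/- and 16.1 ± 1.29 FPKM in WT, with 15.7, 16.0 and 15.9 FPKM in the Fyco1-/- libraries against 15.9, 17.4 and 14.9 FPKM in the WT libraries. Its log2 fold change was -0.02 (95% interval -0.16 to 0.13, limma adjusted p = 0.911).

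Many members were lowest in the library named A of each genotype. Fyco1-/- A was the lowest Fyco1-/- library for 20 of the 27 tested members, or 74.1%, while it was the lowest for 27.2% of all tested genes. WT A was the lowest WT library for 17 of 27, or 63.0%, while it was the lowest for 23.9% of all tested genes. Both held for 14 members, or 51.9%, against 6.41% of all tested genes, and for 11 of the 18 synthesis enzymes. The 14 were Acat2, Hmgcs1, Mvd, Idi1, Fdft1, Sqle, Cyp51, Msmo1, Nsdhl, Hsd17b7, Ebp, Insig1, Stard4 and Scd2. These shares describe the libraries and were not tested.

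The genes whose promoters are printed above were picked for the deepest dip averaged over the genotypes, so its depth in them is no separate result. In Fyco1-/- alone Msmo1 (0.757) lay below Hmgcs1. In WT alone Mvd (0.803) and Stard4 (0.813) lay below Idi1 and Hmgcs1. Insig1 in library A stood at 0.621 of the mean of B and C in Fyco1-/- and at 0.708 in WT. Hsd17b7 stood at 0.734 in Fyco1-/- and 0.717 in WT, and Idi1 at 0.716 in Fyco1-/- and 0.815 in WT. Hmgcs1 stood at 0.811 in Fyco1-/- and 0.835 in WT. Scd2 dipped little, to 0.961 in Fyco1-/- and 0.967 in WT. A CCAAT box was present in 9 of the 10 lowest-in-A members that have a window and in 10 of the 12 other members with one.

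Other measures of the libraries varied as well. The A library was the shallowest of its genotype, at an estimated 18.8 M reads where B had 19.5 M and C 19.0 M in Fyco1-/-, and at 17.1 M where B had 20.1 M and C 17.4 M in WT. Red blood cell markers, with 5 of 5 listed, summed to 239, 98.6 and 110.4 FPKM in the Fyco1-/- libraries against 122, 78.2 and 185 FPKM in the WT libraries. The part of either in the dip of the A libraries was not tested. The letters are not stated to mark a shared litter or day.

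**Figure D3:**
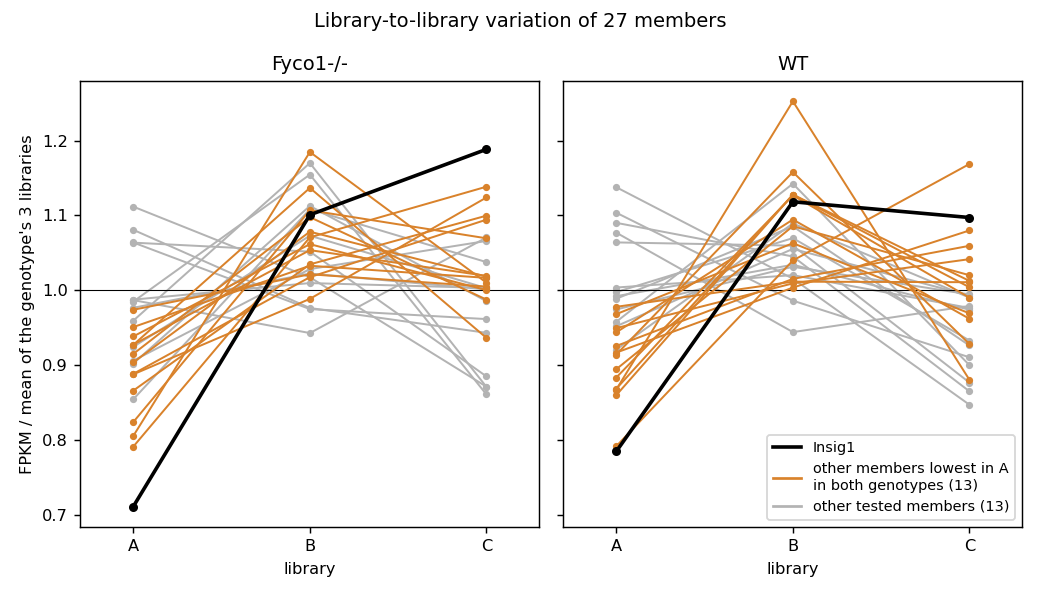
FPKM of the 27 tested members in libraries A, B and C, divided by the mean of the 3 libraries of that genotype, with Fyco1-/- on the left and WT on the right. Insig1 (black) and 13 other members (orange) are lowest in A in both genotypes, and the other 13 tested members are grey.

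Lipid genes outside the 28 held several further differences, and those that fell include desaturases of polyunsaturated fatty acids and a lipoprotein receptor. They come from a list of 54 genes of the wider pathway. Of the 51 that the table lists, 43 were tested, 3 rose and 6 fell, so 20.9% were called, against 8.43% of all tested genes. Their median log2 fold change was -0.10. The list was drawn up with results of these data known, and the counts by role include 0 calls of 8 for regulation and processing, 2 falls of 10 for uptake and trafficking, 0 of 4 for esterification and efflux, 0 of 2 for oxysterol enzymes, and 2 rises and 4 falls of 14 for fatty acid synthesis and desaturation (limma). In the roles without a call, 1 regulation gene and 1 esterification or efflux gene had an unadjusted limma p under 0.05.

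Genes of polyunsaturated fatty acid synthesis fell alongside Scd2. Fads1, a desaturase of polyunsaturated fatty acids, measured 12.3, 12.4 and 11.7 FPKM in the Fyco1-/- libraries against 16.2, 20.3 and 18.5 FPKM in the WT libraries (log2 fold change -0.57, SE 0.08, limma adjusted p = 0.00206). Its neighbour on chromosome 19, Fads2, which acts before it, measured 7.11, 7.33 and 6.28 FPKM in the Fyco1-/- libraries against 8.57, 11.95 and 11.3 FPKM in the WT libraries (log2 fold change -0.57, SE 0.12, limma adjusted p = 0.0162). No Fyco1-/- library reached the WT range in either gene. The proliferation sum and the epithelium sum without Cryab, given beside Scd2, were also lower in Fyco1-/-. The epithelium sum with Cryab was higher, and the part of these shifts in the falls of Fads1 and Fads2 was not tested. The call of Fads2 was lost without WT B, WT C or Fyco1-/- C, with limma adjusted p of 0.0552 to 0.0603. Elovl5, the elongase that acts between the Fads enzymes, measured 2.29, 2.52 and 1.97 FPKM in the Fyco1-/- libraries against 3.26, 3.42 and 2.89 FPKM in the WT libraries (log2 fold change -0.42, limma adjusted p = 0.0451). That call was lost on leaving out any 1 of the 6 libraries (limma adjusted p of 0.0503 to 0.148) and is not made in the authors' deposited table (adjusted p = 0.109).

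Me1 and the receptors followed the same direction. Me1, the malic enzyme that supplies NADPH for lipid synthesis, measured 7.90, 8.71 and 8.42 FPKM in the Fyco1-/- libraries against 10.7, 10.6 and 10.5 FPKM in the WT libraries (log2 fold change -0.33, SE 0.07, limma adjusted p = 0.0132, and 0.0512 without WT B). Scarb1, a receptor that takes up cholesterol esters from high-density lipoprotein, measured 3.16, 3.56 and 3.21 FPKM in the Fyco1-/- libraries against 4.94, 6.18 and 5.07 FPKM in the WT libraries (log2 fold change -0.63, SE 0.10, limma adjusted p = 0.00449). Scarb1 and Fads1 kept their calls when any 1 library was left out. Lrp8, an apolipoprotein E receptor that also binds reelin, measured 2.12, 2.57 and 2.17 FPKM in the Fyco1-/- libraries against 3.03, 3.67 and 3.15 FPKM in the WT libraries (log2 fold change -0.44, SE 0.11, limma adjusted p = 0.0357). Its call was lost on leaving out any 1 library other than Fyco1-/- B (limma adjusted p of 0.0609 to 0.130).

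Lpin1 and Thrsp rose. Lpin1, a phosphatidate phosphatase, measured 15.2, 11.99 and 13.1 FPKM in the Fyco1-/- libraries against 9.62, 10.7 and 10.6 FPKM in the WT libraries (log2 fold change 0.36, SE 0.09, limma adjusted p = 0.0316). Thrsp, a nuclear protein linked to lipid synthesis, measured 2.20, 2.33 and 2.60 FPKM in the Fyco1-/- libraries against 1.51, 1.79 and 1.66 FPKM in the WT libraries (log2 fold change 0.41, limma adjusted p = 0.0460). Every Fyco1-/- library lay above every WT library in both genes. Leaving out 1 library ended the call of Lpin1 unless it was Fyco1-/- B (limma adjusted p of 0.0619 to 0.109 where lost) and that of Thrsp in every case (0.0615 to 0.154). The authors' deposited table calls Lpin1 but not Thrsp (adjusted p = 0.292).

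Scd3, which lies in the same cluster as Scd2 and Scd1 on chromosome 19 and was picked out after its values were seen, went the other way from both. It measured 0.994, 0.753 and 1.03 FPKM in the Fyco1-/- libraries against 0.455, 0.344 and 0.612 FPKM in the WT libraries. The groups did not overlap, but the log2 fold change of 0.56 was not called (limma adjusted p = 0.0667), while the authors' deposited table gave 0.50 with an adjusted p of 0.0312.

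**Figure D4:**
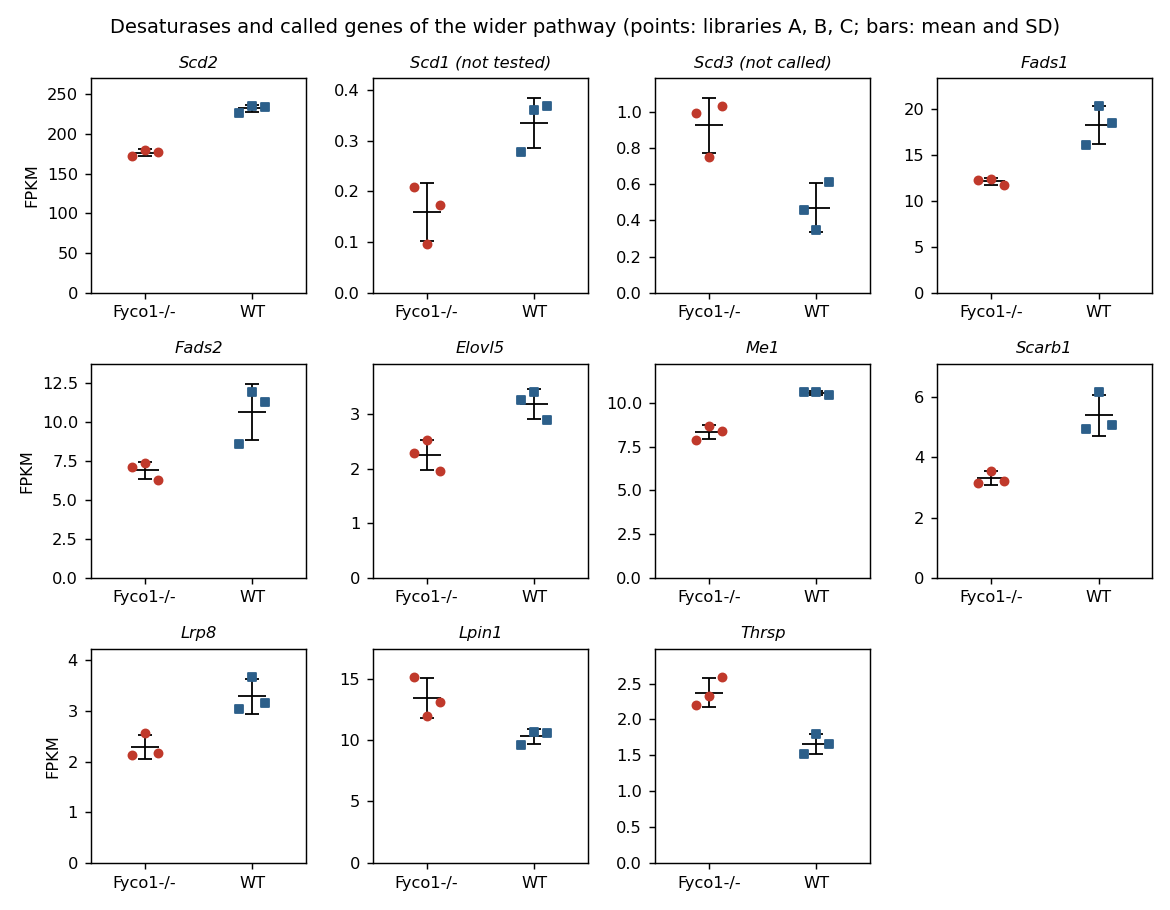
FPKM per library, with mean and SD, for Scd2, Scd1 and Scd3 and 8 called genes of the wider pathway, Fyco1-/- on the left and WT on the right in each panel. Fyco1-/- libraries lie below WT libraries for Scd2, Scd1, Fads1, Fads2, Elovl5, Me1, Scarb1 and Lrp8 and above them for Scd3, Lpin1 and Thrsp, and Scd1 and Scd3 carry no call.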

How the data were processed

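RNA from 6 pools of newborn lenses (3 Fyco1-/-, 3 WT) was sequenced as paired reads. Per the submitters' processing notes, the authors used STAR 2.5 for alignment (GRCm38/mm10) and HTSeq 0.6.1 for counting, and they deposited FPKM values per library. The annotation, strand setting and scaling total are not given in the sources used here. The authors also deposited log2 fold changes and p-values from DESeq2, whose adjusted p is blank for 9232 of the genes. The 28 members, the gene lists and the tests were chosen with earlier results of these data known.

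The 12001 genes whose mean FPKM reached 0.5 entered a limma fit (3.58.1, R 4.3.3). It used log2(FPKM + 0.5), a single genotype term, and moderation of the variance with a trend and robust weights. Calls are Benjamini-Hochberg adjusted p under 0.05 over all 12001, two-sided. Fold changes on that scale understate the ratio of low genes. The steps were tested on simulated data, where 21.6% of 1.25-fold and 55.2% of 1.5-fold changes were called. The share was 86% at 2-fold and 97.6% at 4-fold, so small changes would often go uncalled. Single sums used an exact permutation test (scipy 1.17.1, Python 3.11.15). Each member is named, as is each called gene of the wider pathway apart from 1 that is not reported here, and values in every library are given for called genes, for up to 4 members of each role by p, and for the Srebf, Insig and Scd pairs.

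Depth estimates came from the spacing of low FPKM values, with exon lengths from GENCODE M21 (20805 of 22298 symbols matched). Of 32750 values of 1 to 20 reads, 51.2% were within 0.05 of a whole read, where 10% would be by chance, so no count test was run and no counting intervals are given. Near-identical genes (95% identity over at least 100 bases) came from blastn 2.17.0. Alternatives changed the pseudocount, filter, scaling, moderation, replicate block and the libraries included, and the authors' deposited table served as another.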

Additional observations from a re-analysis of the deposited data

How the results depend on the processing

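Among the 18 alternative settings the call of Scd2 held in every one (adjusted p of 1.96e-12 to 0.00304, log2 fold change -0.41 to -0.34), and the replicate block gave 2 member calls, since it added Insig1 (limma adjusted p = 0.0189). The letters were not taken as pairs, since libraries of the same letter deviated together with correlations of only -0.03 (A), 0.03 (B) and 0.03 (C), while WT B and WT C correlated best with their own letter, and WT A with Fyco1-/- B. The wider pathway had 3 calls with no filter on low values and 3 without both A libraries, and 3 to 7 when 1 library was left out. Over all genes the calls numbered 568 with no filter, 560 without both A libraries, and 611 to 870 when 1 library was left out. Fads1 and Scarb1 kept their calls in all settings. The share of calls that were higher was 40.5%, and 56.5% with median-of-ratios scaling, which left the direction of Scd2 unchanged. Members near a log2 fold change of 0 changed sign. Msmo1 was 0.026 with median-of-ratios scaling, 0.023 with quantile normalization, 0.069 without both A libraries and 0.035 in the authors' deposited table, Fasn was 0.029 with median-of-ratios scaling and 0.030 in that table, and Fdps was -0.064 without both A libraries. With 1 library left out the range was -0.040 to 0.13 for Mvk, -0.17 to 0.065 for Idi1, -0.029 to 0.10 for Fdps, -0.091 to 0.11 for Msmo1, -0.10 to 0.0091 for Dhcr7, -0.17 to 0.0063 for Scap, -0.058 to 0.14 for Insig2 and -0.068 to 0.043 for Fasn. The cause was not tested. Depth limits the values of Scd1, which rest on an estimated 9.09 to 35.4 reads per library.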
